A study of Homo sapiens with 2 samples.

Results

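SLC2A8, FPGT, GPD1L, MUL1, UBE2E3 and BRSK2 are 6 human genes whose promoters carried a strong accessible region in Jurkat and a weak one or none in RPMI-8402. Both are established human lines of T-ALL (T-cell acute lymphoblastic leukaemia), a malignancy of developing T cells. The study mapped their open DNA by ATAC-seq, an assay that uses the transposase Tn5 to cut and tag accessible DNA. Each line gave 1 library of untreated cells, as far as the labels say, grown in the same medium with tetracycline-free serum. The 6 promoters were chosen by the difference in peak signal between these same 2 libraries, so that difference is a description and carries no test. Each gene is represented by all peaks whose summit lay within 50 kb of a position given for its promoter on hg19. These were 12 of the 25189 Jurkat peaks and 7 of the 24603 RPMI-8402 peaks on chromosomes 1 to 22, X and Y. Of them, 6 Jurkat and 3 RPMI-8402 peaks lay at the promoters, and the other 6 and 4 are neighbours.

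The accessible stretch at a promoter is the gap between nucleosomes where RNA polymerase and general transcription factors assemble. Promoters rich in CG dinucleotides, common in genes that most cells use, are usually open in most cell types. Accessibility shows that factors can reach the DNA and does not measure transcription. The 6 genes form no pathway. SLC2A8 (GLUT8) is a hexose transporter of intracellular membranes. FPGT makes GDP-fucose in the fucose salvage pathway. GPD1L is a relative of the glycerol phosphate dehydrogenase GPD1 and is known for modulating the cardiac sodium channel. MUL1 is a ubiquitin and SUMO ligase of the mitochondrial outer membrane. UBE2E3 is a ubiquitin-conjugating enzyme. BRSK2 is a kinase related to AMPK, activated by LKB1 and known for its part in neuronal polarity.

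Promoter sequences are shown to let the base content and short motifs of these regions be read directly. RefSeq windows on GRCh38.p14, each from 250 bases before to 50 bases after an annotated start, were matched at the gene's 5′ end for 5 of the 6 genes, all but BRSK2. Capitals mark every match to 13 short motifs searched on both strands. The peaks are on hg19, so how far the summits lie from these starts was not analysed here.
SLC2A8 (chr9:127396919-127397218, plus strand): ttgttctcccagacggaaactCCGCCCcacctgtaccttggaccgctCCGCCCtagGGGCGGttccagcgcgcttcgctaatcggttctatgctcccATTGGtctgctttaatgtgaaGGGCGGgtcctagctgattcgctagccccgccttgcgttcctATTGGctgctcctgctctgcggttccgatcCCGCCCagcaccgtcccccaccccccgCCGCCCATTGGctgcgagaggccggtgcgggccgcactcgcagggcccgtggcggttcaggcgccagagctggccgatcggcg
FPGT (chr1:74197992-74198291, plus strand): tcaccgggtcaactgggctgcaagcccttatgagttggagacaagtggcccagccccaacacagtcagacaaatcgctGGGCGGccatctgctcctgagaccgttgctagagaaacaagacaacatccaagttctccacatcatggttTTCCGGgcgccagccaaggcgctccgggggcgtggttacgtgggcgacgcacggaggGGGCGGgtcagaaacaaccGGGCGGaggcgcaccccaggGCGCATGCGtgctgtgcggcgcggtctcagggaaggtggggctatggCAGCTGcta
GPD1L (chr3:32106370-32106669, plus strand): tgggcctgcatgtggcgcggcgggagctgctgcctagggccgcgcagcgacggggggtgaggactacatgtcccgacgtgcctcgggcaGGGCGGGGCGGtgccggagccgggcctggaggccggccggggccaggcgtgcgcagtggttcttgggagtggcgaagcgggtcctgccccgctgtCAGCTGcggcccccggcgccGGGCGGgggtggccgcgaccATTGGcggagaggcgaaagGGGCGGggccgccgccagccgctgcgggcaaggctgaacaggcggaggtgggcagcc
MUL1 (chr1:20508102-20508401, minus strand): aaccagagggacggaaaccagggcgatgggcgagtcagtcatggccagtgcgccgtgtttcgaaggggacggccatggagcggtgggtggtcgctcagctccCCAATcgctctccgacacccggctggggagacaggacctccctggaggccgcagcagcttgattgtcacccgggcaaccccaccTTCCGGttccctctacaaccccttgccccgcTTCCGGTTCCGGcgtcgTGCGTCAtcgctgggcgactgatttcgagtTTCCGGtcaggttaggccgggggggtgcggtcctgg
UBE2E3, first start (chr2:180980110-180980409, plus strand): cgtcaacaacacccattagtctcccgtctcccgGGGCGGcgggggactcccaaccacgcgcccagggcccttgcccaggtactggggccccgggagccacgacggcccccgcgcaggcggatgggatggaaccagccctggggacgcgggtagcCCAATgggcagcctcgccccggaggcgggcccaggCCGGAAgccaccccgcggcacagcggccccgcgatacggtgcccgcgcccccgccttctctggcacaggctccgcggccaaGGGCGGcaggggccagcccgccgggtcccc
UBE2E3, second start (chr2:180980355-180980654, plus strand): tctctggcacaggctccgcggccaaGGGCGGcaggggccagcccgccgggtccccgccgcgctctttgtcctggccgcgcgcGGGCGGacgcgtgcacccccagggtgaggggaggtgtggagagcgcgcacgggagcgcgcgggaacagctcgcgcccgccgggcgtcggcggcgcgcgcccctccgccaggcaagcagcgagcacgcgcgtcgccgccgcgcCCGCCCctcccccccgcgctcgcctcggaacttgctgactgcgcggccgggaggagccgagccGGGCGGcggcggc

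The 6 windows of these 5 genes were rich in G and C, between 63.3% in FPGT and 81.3% at the second UBE2E3 start, against a median of 58.7% over all 35116 RefSeq windows of the same length. They held between 22 and 53 CG dinucleotides, against a median of 14. The second UBE2E3 start had more CG dinucleotides than 99.4% of all windows, and the FPGT start more than 62.3%. The ratio of observed to expected CG lay between 0.74 and 1.07, and its median over all windows was 0.58. The 2 UBE2E3 starts lie 245 bases apart and share 55 bases of their windows. RefSeq also lists UBE2E3-DT as overlapping UBE2E3, and whether the peak there belongs to it was not analysed here. FPGT starts 66 bases from LRRIQ3, which is read in the opposite direction, and has the same start as the FPGT-TNNI3K readthrough, so the peak there cannot be assigned to 1 of these 3 genes.

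**Figure D1:**
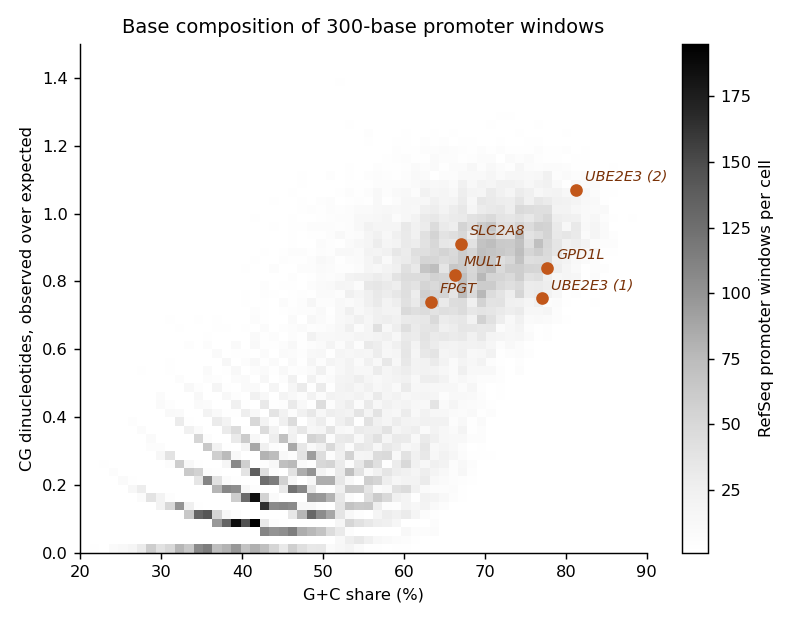
Each cell of the grey map counts RefSeq promoter windows by their G+C share (horizontal axis, %) and their ratio of observed to expected CG dinucleotides (vertical axis). The orange points are the 6 windows of 5 genes, and all lie above the median values of 58.7% and 0.58.

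Motif content differed from gene to gene. The letters GGGCGG, bound by SP1 and KLF factors, occurred in 4 of the 5 genes and in 45% of all windows. SLC2A8 had 6 copies, GPD1L 4 and FPGT 3, and MUL1 had none. The UBE2E3 windows had 2 and 4, of which 1 copy lies in the bases that both windows share. The letters CCAAT, bound by NFY, occurred in 4 of the 5 genes and in 34.6% of all windows, with 3 copies in SLC2A8. The letters CCGGAA, the core of ETS sites, occurred in FPGT, MUL1 and UBE2E3 and in 17.2% of all windows. MUL1 held 4 of them, all read on the reverse strand, together with TGACGCA, a variant of the CREB/ATF site found in 2.47% of all windows. FPGT held GCGCATGCG, an NRF1 site found in 1.92% of all windows. The E-box CAGCTG, bound by E-proteins, occurred in FPGT and GPD1L and in 17.9% of all windows. The other 7 motifs had no match in the 6 windows. These were TGACGTCA for CREB/ATF (1.85% of all windows), CACGTG for USF and MYC (7.26%), TGTGGT for RUNX (13.1%), AAGATGGC for YY1 (2.89%), TATAAA for the TATA box (11.5%), TGANTCA for AP-1 (7.71%) and GATAA for GATA factors (22.7%). Some matches overlap, as the adjoining GGGCGG copies in GPD1L do. A match is a match of letters and was not tested for binding. The shares are over windows of any base content, and the 6 windows are all richer in G and C than the median window. This was not allowed for in setting matches beside the shares. Counts of genes take both UBE2E3 windows together, whereas the shares count single windows.

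The signal of a peak is given here as its summit pileup, the coverage counted at its highest base, solved from the authors' deposited fold enrichment and p-value. Its unit is called fragments here, although the settings that decide whether fragments or single reads were counted are not given. Jurkat peaks had a median pileup of 37 and a lowest of 9, RPMI-8402 peaks a median of 38 and a lowest of 10. The genome-wide background, taken as the lowest background solved for any peak of the list, amounted to 1.59 (Jurkat) and 1.96 (RPMI-8402) fragments per base. With 1 library per line no value has a replicate error, intervals are 95% intervals of counting error only, and PCR copies would make them too narrow. Ratios are scaled so that the median of the 16494 pairs in which 1 Jurkat peak overlapped 1 RPMI-8402 peak is 1. Defining T-cell genes and close relatives of the 6 genes were not analysed here, as no hg19 annotation was used.

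All 6 promoters had a peak in Jurkat, and 3 had an overlapping peak in RPMI-8402. No overlap was seen for SLC2A8, FPGT and BRSK2, whereas 32.6% of all Jurkat peaks and 1.77% of the 5756 Jurkat peaks with a pileup of at least 87, the lowest of the 6, lacked one. At MUL1, UBE2E3 and GPD1L, all 3 pairs were more than 4-fold higher in Jurkat, a difference reached by 0.2% of all pairs. These counts restate how the genes were selected. The 6 Jurkat pileups ran from 87 at MUL1 to 189 at SLC2A8, and the 3 RPMI-8402 pileups from 15 to 21. The highest of these 3 RPMI-8402 pileups was below the lowest in Jurkat, a separation that also follows from how the genes were selected.

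**Figure D2:**
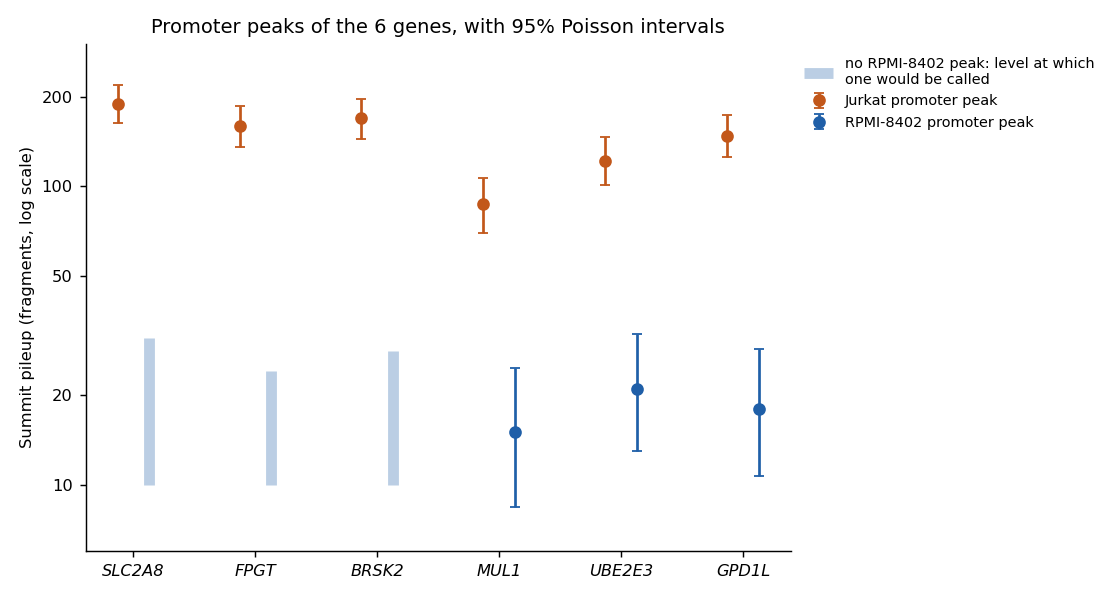
Summit pileup (vertical axis, fragments, log scale) of the promoter peak of each gene in Jurkat (orange) and RPMI-8402 (blue), with 95% Poisson intervals. Jurkat values lie between 87 and 189 and RPMI-8402 values between 15 and 21. Pale bars stand where RPMI-8402 had no peak and span the pileups, from 10 upward, at which one would be called. Their upper ends use the Jurkat background, which may be too high for RPMI-8402.

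Among the genes of sugar and glycerol metabolism, SLC2A8 had the strongest promoter peak. It spanned chromosome 9 from 130158725 to 130159694, a width of 970 bp, and reached 189 fragments in Jurkat (163 to 218), higher than 95.4% of the Jurkat list. RPMI-8402 had no peak there, and its nearest peak was 7.6 kb away. A missing peak is not a pileup of 0. At the RPMI-8402 genome-wide background a pileup of 10 would be called, and at the local background of 13.1 solved for Jurkat at this site a pileup of 31 would be needed. The Jurkat pileup was 6.1 times that higher level. The RPMI-8402 background at this site is not known. At the 3 promoters with a peak in both lines it was below the Jurkat one, so the higher level may be too high.

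FPGT had a Jurkat peak of 790 bp on chromosome 1 from 74663449 to 74664238. Its pileup was 159 (135 to 186), and its deposited fold enrichment, 16.3, was the highest of the 6. RPMI-8402 had no peak within 50 kb, and its nearest lay 159.2 kb away. The level needed for a call was between 10 and 24 fragments by the same reckoning, and the Jurkat value was 6.62 times the upper of these.

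GPD1L had a peak in both lines. The Jurkat peak spanned chromosome 3 from 32147682 to 32148498 and reached 148 fragments (125 to 174). The RPMI-8402 peak, from 32147833 to 32148185, reached 18 (10.7 to 28.4). After scaling, Jurkat was 7.31-fold higher (4.47 to 12.7), which was the most extreme toward Jurkat of all 16494 pairs. The gene was chosen by this difference, so the rank is no finding. The RPMI-8402 peak was 353 bp wide against 817 bp, and it lay wholly inside the Jurkat peak with its summit 242 bp away.

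The ubiquitin genes both kept a weak RPMI-8402 peak. At MUL1 the Jurkat peak spanned chromosome 1 from 20834179 to 20834911 and reached 87 fragments (69.7 to 107). The RPMI-8402 peak, from 20834256 to 20834595, reached 15 (8.4 to 24.7), with a background at the genome-wide value of 1.96. The scaled ratio was 5.16 (2.96 to 9.6). MUL1 was the weakest of the 6 in Jurkat, and its summits lay 55 bp apart, close to the median of 67 bp over all pairs.

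At UBE2E3 the Jurkat peak spanned chromosome 2 from 181844798 to 181845554 and reached 122 fragments (101 to 146). The RPMI-8402 peak, from 181845240 to 181845770, reached 21 (13 to 32.1), a scaled ratio of 5.16 (3.23 to 8.64). Its summit lay 358 bp from the Jurkat summit, farther than in 95.8% of all pairs. The median RPMI-8402 pileup of all pairs was 53, so this weak peak was ranked mostly against stronger ones. The UBE2E3 peaks share 315 bp, which hold the RPMI-8402 summit and not the Jurkat summit. MUL1 and UBE2E3 had the same ratio to 3 digits and ranked 8 and 7 of all pairs toward Jurkat. Both genes were chosen by this difference, so the ranks are no finding.

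BRSK2, the kinase, had a Jurkat peak of 871 bp on chromosome 11 from 1410457 to 1411327, where the pileup reached 169 (144 to 196). RPMI-8402 had no peak within 50 kb, and its nearest lay 79.1 kb away. By the same reckoning and with the same limit as at SLC2A8, the level needed for a call was between 10 and 28 fragments. The Jurkat pileup was 6.04 times the upper of these. By pileup, SLC2A8, BRSK2 and FPGT held ranks 19, 22 and 29 among all Jurkat-only peaks. Among the 562 Jurkat-only peaks at least 733 bp wide, the narrowest promoter width here, they held ranks 3, 4 and 8. The genes were chosen by this signal and the width limit comes from their own peaks, so these ranks are no finding.

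**Figure D3:**
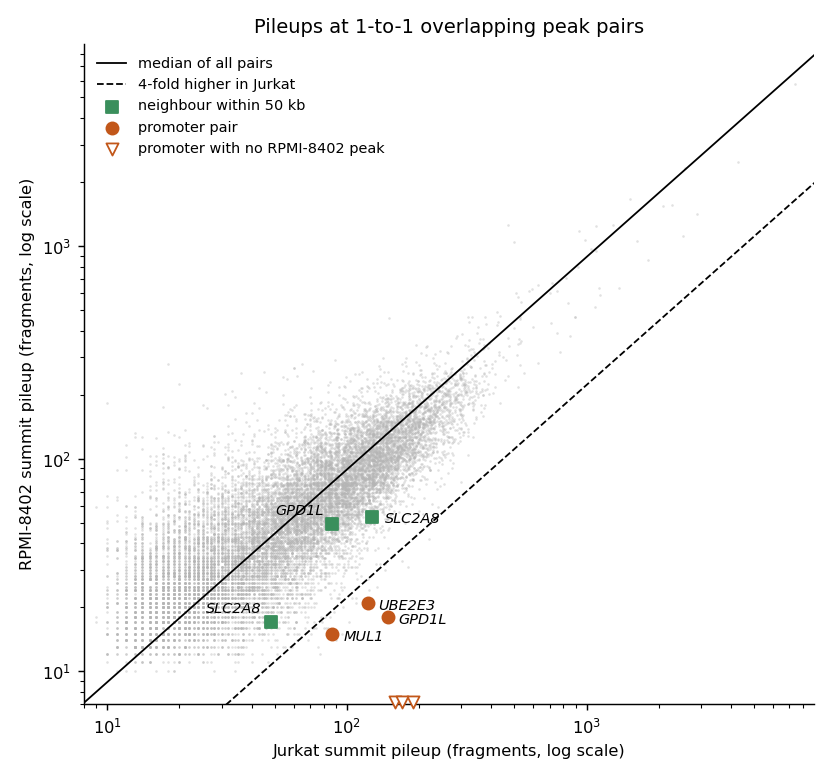
Each grey point is 1 of the 16494 pairs, with the Jurkat pileup on the horizontal and the RPMI-8402 pileup on the vertical axis (fragments, log scales). The solid line is the median ratio and the dashed line a 4-fold higher value in Jurkat. The MUL1, UBE2E3 and GPD1L promoters (orange) lie below the dashed line, and triangles on the lower edge give the Jurkat pileups of 159, 169 and 189 without an RPMI-8402 peak.

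The 6 Jurkat promoter peaks were between 733 and 970 bp wide, all above the Jurkat median of 611 bp. The 3 RPMI-8402 promoter peaks were 340, 353 and 531 bp wide, all below that library's median of 694 bp. Over all pairs the RPMI-8402 peak had a median width of 103% of the Jurkat peak, and at GPD1L, MUL1 and UBE2E3 it had 43.2%, 46.4% and 70.1%. Width is measured on the same signal as the pileup and is not a separate finding. The deposited fold enrichment set the lines less far apart than the pileup, with Jurkat to RPMI-8402 ratios of 2.5 at GPD1L, 2.68 at MUL1 and 3 at UBE2E3. The solved background differed in the same direction as the peak, with 9.53 against 2.35 fragments per base at GPD1L, 5.07 against 1.96 at MUL1 and 8.77 against 4.25 at UBE2E3. This background was solved from the same deposited values as the pileup, so it is not a separate finding either. Fold enrichment divides pileup by background, so a higher background in Jurkat lowers this ratio by construction.

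The neighbours within 50 kb were not used to choose the genes, although they come from the same libraries. RPMI-8402 had a peak over 3 of the 6 Jurkat neighbours, and Jurkat had one over 3 of the 4 RPMI-8402 neighbours. The shares without an overlap, 3 of 6 and 1 of 4, stand beside 32.6% and 31.9% of all peaks, and so few peaks cannot show a difference from these. The surroundings differed between genes. FPGT and UBE2E3 had no other Jurkat peak within 50 kb, BRSK2, MUL1 and GPD1L had 1 each and SLC2A8 had 3. Of all Jurkat peaks with a pileup of at least 87, 29.1% had no other peak within 50 kb and the median was 1, so lone peaks of this strength were common.

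**Figure D4:**
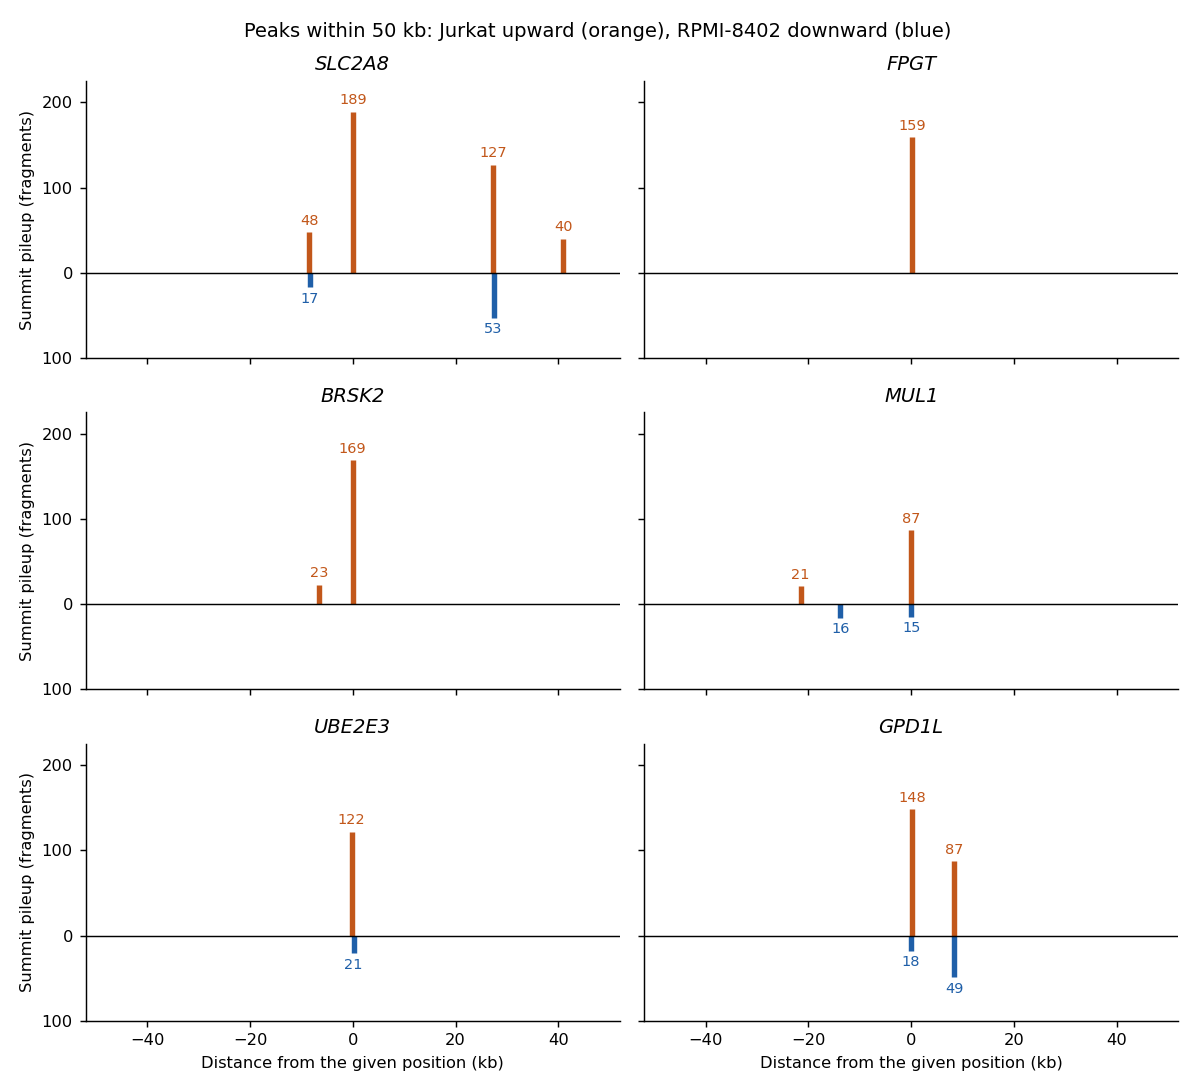
Each panel shows 1 gene. Bars stand at peak summits, by distance from the given promoter position (horizontal axis, kb), and their length is the summit pileup (vertical axis, fragments), upward for Jurkat in orange and downward for RPMI-8402 in blue. The promoter bar is the tallest Jurkat bar in all 6 panels, from 87 to 189, while the RPMI-8402 bars reach at most 53, at a neighbour of SLC2A8. FPGT and UBE2E3 have no other Jurkat bar. The genes were chosen by their promoter signal, so the height of the promoter bars is no finding.

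The 3 shared neighbouring pairs all had more Jurkat signal, also without scaling, under scaling by the genome background and on the deposited fold enrichment. Their median log2 value of RPMI-8402 over Jurkat was −1.09. At SLC2A8, the peak 8.5 kb away, at lower coordinates, had 48 fragments (35.4 to 63.6) in Jurkat and 17 (9.9 to 27.2) in RPMI-8402, a scaled ratio of 2.51 (1.42 to 4.66). The peak 27.3 kb away at higher coordinates had 127 (106 to 151) and 53 (39.7 to 69.3), a ratio of 2.13 (1.53 to 2.99). Another neighbour, at 41.0 kb, had 40 fragments in Jurkat and no RPMI-8402 peak. The first pair beyond the window, at 54.4 kb, had 90 and 64, a ratio of 1.25 (0.897 to 1.75), whose interval includes 1. As log2 values of RPMI-8402 over Jurkat these 3 pairs had −1.33, −1.09 and −0.32, against a median of −0.02 and quartiles of −0.41 and 0.43 for the 97 pairs within 2.5 Mb. The 2 neighbours held ranks 2 and 4 of these 97 toward Jurkat, and differences of 2-fold or more in that direction were found in 4.89% of all pairs.

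At GPD1L, the neighbour 8.3 kb from the promoter had 87 fragments (69.7 to 107) in Jurkat and 49 (36.3 to 64.8) in RPMI-8402. Its ratio was 1.58 (1.1 to 2.29), a log2 value of −0.66, which was rank 2 of 31 pairs within 2.5 Mb toward Jurkat, whose median was 0.22. Within RPMI-8402 the GPD1L promoter reached 0.367 times the pileup of this neighbour, and within Jurkat 1.7 times. The promoter pileups in these values are those the gene was chosen by. On the deposited fold enrichment the promoter and this neighbour were close in Jurkat, at 14.1 and 13.4, and stood at 5.67 and 9.12 in RPMI-8402. Beyond the window, an RPMI-8402 peak at 71.3 kb had 26 fragments and no Jurkat partner. The first pair beyond the window, at 132.3 kb, had 71 fragments in RPMI-8402 and 50 in Jurkat. Its scaled ratio was 0.626 (0.427 to 0.912), against 0.868 under genome-background scaling and 1.02 on the deposited fold enrichment, so its direction was not the same on every scale.

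BRSK2 and MUL1 had no shared neighbour within 50 kb. The Jurkat peak 6.6 kb from the BRSK2 promoter had 23 fragments (14.6 to 34.5) and no RPMI-8402 partner. Just outside the window, a Jurkat peak at 52.7 kb had 16 and no partner. At this strength a missing partner says little, because an RPMI-8402 pileup of up to 12 may be needed for a call at the 6.6 kb site. The level needed at 52.7 kb was not computed. The nearest shared pair of BRSK2, 80.2 kb away, had 167 fragments in Jurkat and 81 in RPMI-8402, a ratio of 1.83 (1.4 to 2.42). In Jurkat it was about as strong as the BRSK2 promoter, which had 169. Around MUL1 each line had 1 weak peak that the other lacked, with 21 fragments in Jurkat at 21.5 kb and 16 in RPMI-8402 at 13.8 kb. Beyond 50 kb, an RPMI-8402 peak at 67.6 kb had 18 and no Jurkat partner. The nearest shared pair of MUL1, at 125.7 kb, was higher in RPMI-8402, with 98 against 46 fragments, a ratio of 0.417 (0.287 to 0.598).

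The direction of the wider regions depended on the scaling for MUL1 and GPD1L. Over shared pairs within 2.5 Mb, without the promoter, the median log2 value (RPMI-8402 over Jurkat) was −0.02 around SLC2A8 (97 pairs), 0.58 around FPGT (17), 0.22 around GPD1L (31), 0.36 around MUL1 (31), −0.22 around UBE2E3 (19) and −0.14 around BRSK2 (55). The quartiles of all pairs were −0.40 and 0.46. Scaling by the genome background instead lowers every such value by 0.47, which leaves a median above 0 at FPGT alone, at 0.11. The medians are then −0.11 at MUL1, −0.25 at GPD1L, −0.50 at SLC2A8, −0.61 at BRSK2 and −0.69 at UBE2E3. In the FPGT region RPMI-8402 had 37 peaks against 26 in Jurkat. The GPD1L region also held more RPMI-8402 peaks, 61 against 44, and the BRSK2 region fewer, 60 against 89. RPMI-8402 also had fewer around SLC2A8 (117 against 128), MUL1 (42 against 49) and UBE2E3 (31 against 34). The BRSK2 region is shorter than the others, as its position, 1411000, is less than 2.5 Mb from the start of chromosome 11. The promoter values of −2.87 at GPD1L, −2.37 at MUL1 and −2.37 at UBE2E3 are the ones these genes were chosen by, so their place below the other pairs of their regions is no finding. The lowest of those other pairs had −0.90, −0.58 and −1.91. Copy number of these segments in the lines was not tested.

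**Figure D5:**
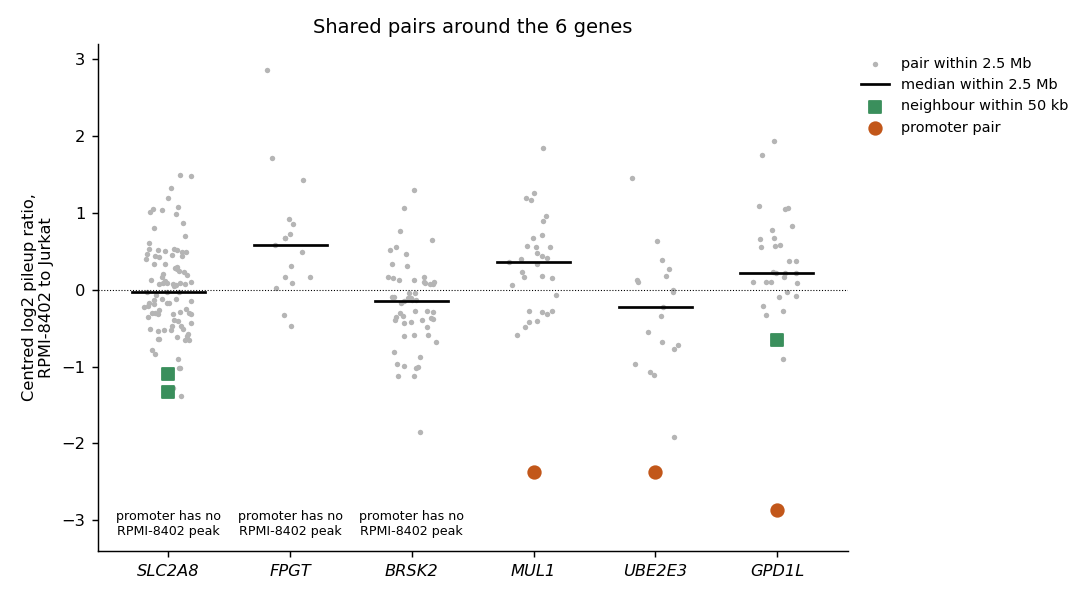
The vertical axis gives the log2 pileup ratio (RPMI-8402 over Jurkat) with the median of all pairs set to 0. Grey points are shared pairs within 2.5 Mb of each gene and black bars their medians, from −0.22 to 0.58, of which those of MUL1 and GPD1L fall below 0 under genome-background scaling. Green squares are neighbours within 50 kb, and orange points are the promoters with a peak in both lines, at −2.37 to −2.87.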

How the data were processed

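ATAC-seq peak lists of 1 Jurkat and 1 RPMI-8402 library, sequenced as paired-end reads of 150 bp per the labels' protocols, were used. The submitters' processing notes list MACS2 2.1.1.2016030 beside Bowtie2, SAMtools and Picard, and the build hg19, with no parameters. How reads were filtered, deduplicated or shifted for Tn5 is not given in the sources used here. The deposited columns are a score (10 times the −log10 p), a fold enrichment ratio, and p- and q-values written as −log10, all made by the authors for each library alone. Mitochondrial peaks were left out.

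Pileup k and background b were solved from fold = (k + 1)/(b + 1) and the Poisson upper tail of k at b, the formula MACS2 is known to use. All solutions were whole within 0.01, 100% of peaks. Overlap means at least 1 bp. Intervals are exact (Poisson, conditional binomial). Computation used scipy 1.17.1, pandas 2.3.3, numpy 2.4.6 and matplotlib 3.10.9 under Python 3.11.15, and the solving and pairing steps were tested on simulated data. The genes, positions and comparisons were chosen with earlier results of these data known. All peaks within 50 kb are named. Motifs were read in RefSeq windows on GRCh38.p14. Total reads per library were not used. With 1 library per line nothing was tested between lines. Alternatives in scaling, overlap, threshold and window are given in the closing section.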

Additional observations from a re-analysis of the deposited data

How the results depend on the processing

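Of 67 alternative values, 25 were counts of peaks, which have no direction, and 3 of the other 42 turned. These 3 were among the alternatives for the wider regions and for the pairs outside the window, which were chosen after seeing the data. Scaled by the genome background, the median log2 value within 2.5 Mb was −0.11 at MUL1 and −0.25 at GPD1L, and on the deposited fold enrichment the GPD1L pair at 132.3 kb had a Jurkat to RPMI-8402 ratio of 1.02. Of the rest, 42 stayed within the interval of the reported value or within 1.5 times the reported count, and 22 moved. On the deposited fold enrichment the Jurkat to RPMI-8402 ratio was 2.68 at the MUL1, 3 at the UBE2E3 and 2.5 at the GPD1L promoter, lower because the background is also higher in Jurkat. Of the 3 promoter peaks shared, 0 were shared at an overlap of 50% of both peaks and 0 at −log10 q of at least 10, the RPMI-8402 promoter peaks having −log10 q of 6.57 to 8.52. With that minimum the neighbouring RPMI-8402 peaks numbered 2. Within 100 kb there were 9 neighbouring RPMI-8402 peaks, 5 of them shared, and 5 Jurkat neighbours were shared, as the window is wider. Scaled by the genome background, the SLC2A8 neighbouring pairs had a median log2 value (RPMI-8402 over Jurkat) of −1.68 in place of −1.21. No ratio could be given where RPMI-8402 had no peak. No paired analysis was possible because there is 1 library per line, so replicates were not left out either. Depth limits what a missing peak says to pileups above the level that would be called.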
